A study of Mus musculus with 38 samples.

Results

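The regions described here are the listed binding sites and acetylated stretches around 3 genes of hepatic glucose production, Pck1, G6pc and Ppargc1a, in chromatin immunoprecipitation sequencing of mouse liver and isolated mouse hepatocytes. They are all regions that overlapped a window of the gene plus about 50 kb on each side, in mm9 coordinates: chr2:172928000-173035000 for Pck1, chr11:101178000-101290000 for G6pc and chr5:51795000-51996000 for Ppargc1a. Of 278566 regions in 11 lists, 180 lay in these windows, 72 at Pck1, 56 at G6pc and 52 at Ppargc1a. The window without its flanks is called the gene part below; it measured 7 kb for Pck1, 12 kb for G6pc and 101 kb for Ppargc1a. Positions are given in kb from the gene-start edge of that part, negative upstream. The windows are rounded, so this edge marks the start of the gene to about 1 kb.

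All mice were C57BL/6; sex and age were not given in the labels used. Liver was taken from mice fed freely, fasted for 10 h or fasted for 24 h, and precipitated with antibodies to acetylated lysine of histone H3 (H3K27ac; fed, 10 h and 24 h, 3 libraries each), to CREB or to phosphorylated CREB (fed and 24 h, 3 libraries each). Hepatocytes isolated by collagenase perfusion were left untreated (1 CREB library), treated for 1 h with 10 nM glucagon (2 CREB libraries), or treated for 1 h with 10 nM glucagon and 1.7 uM corticosterone (2 CREB libraries and 2 libraries for the glucocorticoid receptor, GR). Each of the 11 groups has 1 list, so every value below is 1 value per condition, and no difference between conditions could be tested. For hepatocytes there was no list of corticosterone alone, of H3K27ac or of GR without hormone among those used, and the 10 h fast had H3K27ac only. The lists name no genes, so the tissue label was not checked against marker genes.

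Pck1 encodes the cytosolic phosphoenolpyruvate carboxykinase, which commits oxaloacetate to glucose synthesis. G6pc encodes the catalytic subunit of glucose-6-phosphatase, which releases free glucose at the end of the pathway. Ppargc1a encodes PGC-1alpha, a transcriptional coactivator that is induced in fasted liver and acts on the genes of gluconeogenesis. Glucagon raises cyclic AMP in hepatocytes, protein kinase A then phosphorylates CREB, and CREB bound at cyclic AMP response elements recruits coactivators that acetylate histones. Corticosterone, the main glucocorticoid of rodents, acts through GR, a ligand-activated receptor that binds DNA. H3K27ac marks active promoters and enhancers.

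The promoters of the 2 enzyme genes are shown because regions of CREB, phospho-CREB or GR were listed near both starts. They are the 250 bases before the RefSeq start, on the plus strand, in build GRCm38.p6, at chr2:173152823-173153072 for Pck1 and chr11:101367466-101367715 for G6pc. These positions belong to another build than the lists and cannot be set against the mm9 positions below. Capitals mark an 8-base variant of the cyclic AMP response element, TTACGTCA in Pck1 and TTACGTAA in G6pc.
Pck1: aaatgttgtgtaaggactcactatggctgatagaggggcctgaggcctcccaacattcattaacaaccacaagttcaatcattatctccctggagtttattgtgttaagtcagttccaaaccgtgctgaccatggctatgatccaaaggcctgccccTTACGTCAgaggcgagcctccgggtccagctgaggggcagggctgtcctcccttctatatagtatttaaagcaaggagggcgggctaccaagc
G6pc: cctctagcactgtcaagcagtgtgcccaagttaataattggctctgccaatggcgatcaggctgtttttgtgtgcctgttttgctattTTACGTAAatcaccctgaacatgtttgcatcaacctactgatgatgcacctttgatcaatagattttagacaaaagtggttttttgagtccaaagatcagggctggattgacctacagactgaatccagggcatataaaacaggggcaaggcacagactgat
TTACGTCA lies at bases -93 to -86 before the Pck1 start, and 0.447% of 32851 RefSeq promoters of this length hold it on either strand. TTACGTAA lies at bases -162 to -155 before the G6pc start, and 0.113% of the promoters hold it. The full palindrome TGACGTCA is in 1.55% of the promoters and in neither of these. The motifs were chosen after the sequences had been seen, and a match is a description of the letters only. The table's promoter of Ppargc1a belongs to a start farther upstream than the gene part used here, so it was not set against a region.

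The windows were denser in listed regions than the genome in every list. In H3K27ac the windows held 4.76 (fed), 6.9 (10 h) and 5.71 (24 h) regions per 100 kb, beside 1.13, 1.81 and 1.22 over the whole span of the lists. CREB in liver gave 1.67 (fed) and 3.1 (24 h) regions per 100 kb in the windows, beside 0.498 and 0.429. Phospho-CREB gave 0.476 (fed) and 1.43 (24 h), beside 0.29 and 0.258. In hepatocytes CREB gave 5.0 (untreated), 4.76 (glucagon) and 5.95 (both hormones), beside 1.8, 1.07 and 1.59. GR gave 3.1 beside 0.45. The 3 windows were picked as gene loci of the pathway with earlier results known, so these ratios describe the loci and are not a test. In H3K27ac the windows of Pck1 and G6pc held more listed length than that of Ppargc1a, where the gene part is 101 of 201 kb. This did not hold in every list. CREB after glucagon covered 5.14 kb of the Pck1 window, 4.32 kb of the G6pc window and 5.95 kb of the Ppargc1a window. H3K27ac covered 14.3%, 17.9% and 22.9% of the Pck1 window in fed, 10 h and 24 h liver, 13.4%, 17.4% and 15.2% of the G6pc window, and 2.47%, 5.84% and 4.07% of the Ppargc1a window.

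**Figure D1:**
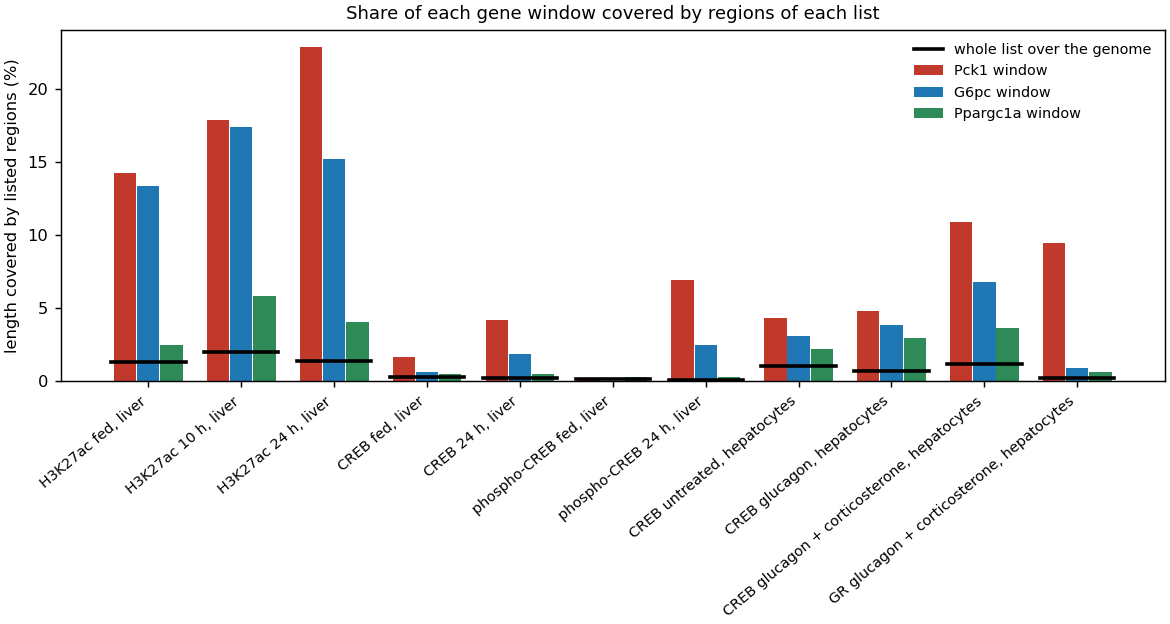
Share of each gene window covered by listed regions (y axis, %), for each of the 11 lists (x axis); bars are the 3 windows and the black line is the same share over the whole genome span of the list. The Pck1 bar stands highest in 10 of the 11 lists, and reaches 22.9% for H3K27ac at 24 h; the G6pc bar is at 0 for phospho-CREB in fed liver.

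Of the 180 regions, 82 overlapped a gene part, 66 lay upstream and 32 downstream, and 51 were in the top 10% of their list by tag density. Tag density is the authors' highest density in a region, and its scaling between lists is not stated, so it was ranked within a list. The map of the windows shows where the lists stacked. After regions of the 8 CREB, phospho-CREB and GR lists were joined where they touched, 27 positions remained, 6 at Pck1, 14 at G6pc and 7 at Ppargc1a. A position with regions from 5 or more of the 8 lists was seen 3 times at Pck1, 4 times at G6pc and 1 time at Ppargc1a. Those of the G6pc window included the positions at -50.6 kb, on the window's edge, and 58.5 kb, both far from the gene part. The 2 positions present in all 8 lists were a joined stretch of 8879 bp over Pck1 and a site inside Ppargc1a, 9.2 kb after the gene-start edge. Regions within the Pck1 stretch did not all overlap each other. In fed liver the CREB region there lay at 0.4 kb and the phospho-CREB region at 7.3 kb. H3K27ac was listed in at least 1 feeding state at 18 of the 27 positions. Joined positions were not counted over the genome, so these counts describe the windows and have no share to stand beside.

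**Figure D2:**
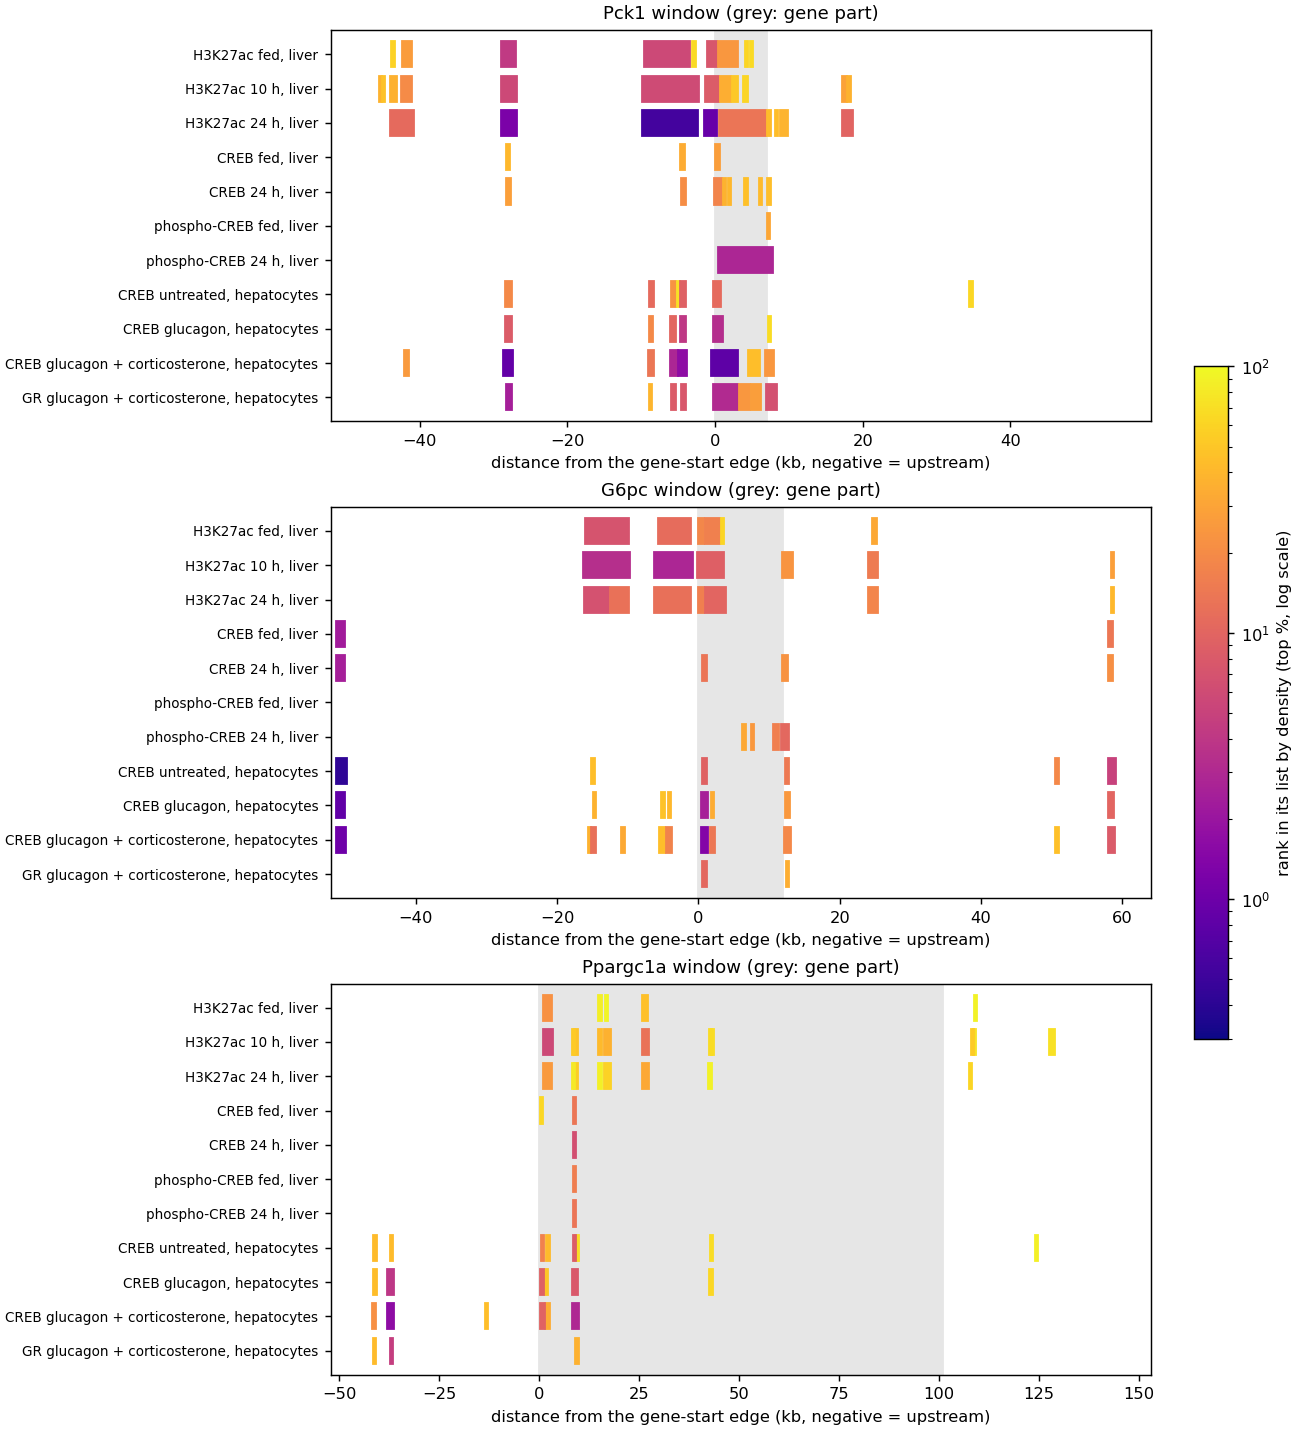
Every listed region in the 3 windows, drawn to scale except that short regions have a minimum drawn width: x axis, distance from the gene-start edge (kb); rows, the 11 lists; colour, rank by density in its own list (top %, log scale, dark = densest); grey, the gene part. The darkest Pck1 bars are H3K27ac at 24 h and CREB under both hormones, and the 2 Ppargc1a columns near -37 and -41 kb hold hepatocyte CREB and GR and no liver list.

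At Pck1, H3K27ac was densest, relative to the other loci, after 24 h of fasting, at each of the 4 positions that all 3 lists held. Ranks were taken over the same 21402 loci in each list, rank 1 being the densest. The upstream block 6.0 kb before the gene-start edge (chr2:172968103-172975820) had rank 1689 in fed liver, 2785 at 10 h and 180 at 24 h, at densities of 66.56, 54.38 and 108.5. The gene-start block, which runs into the gene, had rank 2199, 3964 and 295, at densities of 60.72, 47.81 and 99.12. A block 27.9 kb upstream had rank 1252, 2692 and 395, at densities of 72.9, 55.13 and 93.7. At all 3 the rank was farthest from the top at 10 h and nearest to it at 24 h. The block 42.4 kb upstream followed the same order further down the lists, at ranks 7548, 9034 and 3456. The same 4 positions stood nearest the top at 24 h when ranked by the authors' z-score, although the margin at -27.9 kb was then narrow, 1932 at 24 h and 1948 in fed liver.

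At Ppargc1a the order of the feeding states differed: all 4 positions held by the 3 lists stood nearest the top at 10 h, by density and by z-score. The position 2.2 kb after the gene-start edge (chr5:51942605-51945003) had rank 6387 in fed liver, 2666 at 10 h and 7875 at 24 h, at densities of 35.94, 55.16 and 27.55. Fed and 24 h liver stood nearer to each other there than to 10 h. The intragenic positions at 26.6, 17.2 and 15.3 kb had ranks of 12367, 5961 and 9584, of 20843, 14997 and 16035, and of 19850, 16350 and 20382. The last 2 lay low in each of the 3 lists. At G6pc the 4 positions were divided, 2 nearest the top at 10 h and 2 at 24 h. The block 3.5 kb upstream had rank 3366 in fed liver, 1330 at 10 h and 3835 at 24 h. The block over the start of the gene, at 1.9 kb, had rank 4841, 4170 and 3158. By z-score its ranks were 5886, 8092 and 3874, so it then stood farthest from the top at 10 h. The block at -13.0 kb had rank 2086, 1611 and 2155. Its z-score ranks were 3250, 3236 and 5586. The one at 24.7 kb had rank 8941, 6953 and 5648. Over the 3 windows 0 of 12 positions stood nearest the top in fed liver, 6 at 10 h and 6 at 24 h; over all loci the shares were 29.2%, 37.1% and 33.7%. By z-score the G6pc position at -3.5 kb stood nearest the top in fed liver.

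**Figure D3:**
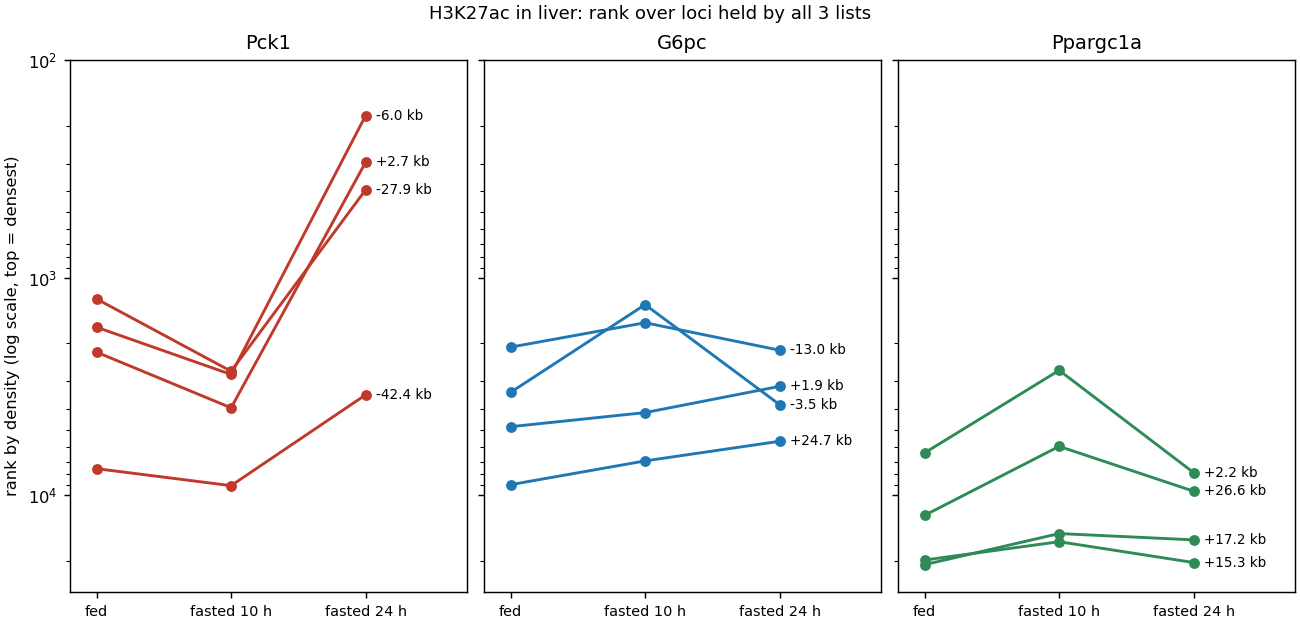
Rank of H3K27ac density (y axis, log scale, densest at the top) over the 21402 loci held by the fed, 10 h and 24 h lists (x axis); each line is 1 position, labelled by its distance from the gene-start edge. The 4 Pck1 lines end highest at 24 h, at ranks 180, 295, 395 and 3456, and the 4 Ppargc1a lines peak at 10 h.

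The counts over pairs of lists give these values against the genome. In each pair the loci held by both lists were ranked over the same loci, and a shift of at least 10 percentile points was counted. From fed to 24 h, 5 of 14 window loci stood nearer the top at 24 h and 0 nearer in fed liver, where 18.8% and 19.3% of all 23961 loci did so. From fed to 10 h, 4 of 15 stood nearer the top at 10 h, all in Ppargc1a, and 1, inside Pck1, stood nearer in fed liver, beside 22.9% and 23.2% of 24236 loci. From 10 h to 24 h, 7 of 18 stood nearer the top at 24 h and 4 nearer at 10 h, beside 24.6% and 24.3% of 24684 loci. Of those nearer at 24 h, 5 were at Pck1 and 2 at Ppargc1a, at 9.0 and 108.2 kb, by 11.23 and 10.32 points. Of those nearer at 10 h, 3 were at Ppargc1a and 1 at G6pc. The 2 pairs with fed liver share that list, and the 3 comparisons are not independent of each other. The window counts are small. That toward 10 h from fed liver was near the share of all loci, and the 1 Pck1 locus nearer the top in fed than in 10 h liver moved by less than 10 points by z-score, at -8.335 in place of -20.92. The largest shift toward 24 h against fed liver was 25.19 points, at the Ppargc1a position at 17.2 kb. Against 10 h it was 43.55 points, over the body of Pck1. Toward 10 h against 24 h it was 22.61 points, at the Ppargc1a position at 15.3 kb.

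A percentile shift cannot be large for a locus that is already near the top, so the ratio of ranks was counted as well, over loci in the top 10% of either list, with a ratio of at least 4 counted. From fed to 24 h, 2 of 4 such window loci had a rank number at least 4 times smaller at 24 h, both at Pck1, and 0 had one at least 4 times smaller in fed liver, beside 4.81% and 5.64% of all such loci. The Pck1 ratios were 9.392 for the upstream block and 7.455 at the gene start. From 10 h to 24 h, 3 of 5 passed toward 24 h, all at Pck1, and 0 toward 10 h, beside 13.9% and 14.4%. Their ratios were 15.48, 13.46 and 6.82. From fed to 10 h, 0 of 5 passed in either direction, beside 12.3% toward 10 h and 11.9% toward fed liver. Rank ratios, here and below, were counted by density only. By z-score, over the loci of all 3 lists, the upstream block had rank 2474 in fed liver, 3448 at 10 h and 864 at 24 h. The gene-start block had 2635, 4825 and 1213, and the block at -27.9 kb 1948, 3335 and 1932. The ratios of these z-score ranks were smaller than those by density and below 4.

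Some acetylated regions were listed in fasted liver only. Of 24 window regions at 24 h, 9 (37.5%) touched no region of the fed list, beside 20.3% of the whole list. In the other direction 1 of 20 fed regions touched none at 24 h, beside 14.6%. Of 29 regions at 10 h, 12 (41.4%) touched no fed region, which was below the 46.7% of the whole list. Of 20 fed regions 1 touched none at 10 h, beside 7.36%. Between the fasts, 6 of 29 regions at 10 h touched none at 24 h, beside 45.3%. Of 24 regions at 24 h, 3 (12.5%) touched none at 10 h, close to the 11.6% of the whole list. The 10 h list is the longest, with 47777 regions beside 29917 and 32103, and a longer list has more regions that can lack a partner. The densest fasting-only region was at Pck1, 17.9 kb after the gene-start edge and thus past the gene's end (chr2:172995175-172996690). Its density was 49.58, rank 3146 of 32103, at 24 h; at 10 h 2 shorter regions lay there, the denser at 20.94, rank 13817 of 47777. At Ppargc1a the site 9 kb into the gene, which all 8 factor lists held, had 2 acetylated regions at 10 h and 2 at 24 h and none in the fed list. At G6pc a region at 12.6 kb (chr11:101239767-101241370) was listed at 10 h only, at a density of 25.73.

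H3K27ac at 24 h also covered more of the Pck1 gene. Its regions covered 52.3% of the 7 kb gene part in fed liver, 51.2% at 10 h and 93.2% at 24 h. For G6pc the same share was 28.4%, 32.3% and 31.9%.

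CREB in liver stood higher at Pck1 and Ppargc1a after 24 h of fasting, and a site near the G6pc start was in the 24 h list only. Of 6 loci held by both lists, 4 stood at least 10 points nearer the top at 24 h and 0 nearer in fed liver, beside 12.8% and 13.5% of all 6823 loci. At Pck1 the 3 shared sites were at -28.0 kb, -4.3 kb and 0.4 kb. Their densities were 10.09, 11.95 and 14.73 in fed liver and 15.44, 20.38 and 23.26 at 24 h. Their shifts were 21.19, 24.7 and 20.4 points. Ranked by z-score these were 19.46, 5.408 and 29.66, so the site at -4.3 kb passed 10 points by density only. The Ppargc1a site at 8.9 kb (chr5:51936603-51937590) had a density of 27.88, rank 1816 of 13142, in fed liver and 65.94, rank 737 of 11339, at 24 h. The site at 58.4 kb in the G6pc window went the other way, with a density of 27.75 in fed liver and 19.6 at 24 h, a shift of -8.032 points by density and -19.17 by z-score. The rank ratio passed 4 at 0 of the 1 window locus in the top 10% of either liver CREB list, in either direction, beside 0.0% toward 24 h and 1.9% toward fed liver. A dense CREB region straddled the upstream edge of the same window (chr11:101176659-101178014 over the 2 liver lists) and was listed in fed and fasted liver at ranks 300 and 276. Both positions lie far from the G6pc gene part. RefSeq's gene order has Psme3, Aoc2 and Aoc3 on the upstream side of G6pc and Aarsd1, Ptges3l and Rundc1 on the downstream side, and which gene either region belongs to was not determined.

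Of 13 window regions of CREB at 24 h, 7 touched no region of the fed list, beside 38.7% of the whole list, and 1 of 7 fed regions touched none at 24 h, beside 47.0%. Of the 7, 5 lay along the body and just past the end of Pck1, with densities of 9.406 to 11.66, and 2 lay at G6pc. The 5 are neighbouring regions at 1 gene, so they are not independent of each other. The denser G6pc region was at 0.9 kb (chr11:101228577-101229242), with a density of 30.96, rank 1508 of 11339 and a z-score of 26.16. The other, at 12.3 kb (chr11:101239869-101240658), had a density of 18.45 and rank 2559. At both positions the 3 hepatocyte CREB lists and the GR list had regions too. The 1 region of fed liver without a partner was a weak one at Ppargc1a, 0.6 kb after the gene-start edge, with a density of 5.577, rank 8246 of 13142.

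Phospho-CREB had 2 window regions in fed liver and 6 after 24 h. None of the 2 fed regions lacked a partner at 24 h, beside 61.5% of the fed list, and 4 of the 6 at 24 h touched no fed region, beside 56.7%. All 4 were at G6pc, from 6.5 to 12.3 kb, and the densest (chr11:101239677-101240833) had a density of 21.9, rank 707 of 6812 and a z-score of 29.82. No phospho-CREB region was listed anywhere in the G6pc window in fed liver. Of the 2 loci held by both lists, 1 stood at least 10 points nearer the top at 24 h and 0 in fed liver, beside 15.7% and 17.0% of 2860 loci. The shifted locus was Pck1. In fed liver it had 1 region of 277 bp just past the gene's end (chr2:172985125-172985402), with a density of 10.32, rank 2410 of 7669. At 24 h it had 1 region of 7463 bp (chr2:172978352-172985815), with a density of 49.36, rank 193 of 6812 and a z-score of 64.66. It covered 95.0% of the gene part and was the widest region of its list. At the Ppargc1a site at 8.9 kb phospho-CREB had a density of 19.84, rank 1217, in fed liver and 18.5, rank 910, at 24 h. Its shift was 2.657 points by density and 11.29 by z-score, so whether it passed 10 points depended on the ranking; for total CREB there it was 15.68 and 23.26. The rank ratio was at least 4 toward 24 h at the 1 window locus in the top 10% of either phospho-CREB list, Pck1 at 8.23, and at 0 toward fed liver, beside 1.6% and 1.07%.

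In hepatocytes, CREB stood nearer the top of its list after glucagon at some sites of each window, fewer at G6pc than at Pck1 and Ppargc1a. Of 16 loci held by the untreated and glucagon lists, 11 stood at least 10 points nearer the top after glucagon and 0 nearer in untreated cells, beside 24.5% and 27.3% of all 20161 loci. They were 4 of 5 at Pck1, 2 of 5 at G6pc and 5 of 6 at Ppargc1a. The rank ratio, over loci in the top 10% of either list, was at least 4 toward glucagon at 3 of 5 loci, 1 in each window, and at 0 toward untreated cells, beside 14.1% and 0.155%. The name of the untreated list gives 1 library set against itself, the group has 1 sample, and the glucagon list rests on 2; what this does to the ranks was not tested. The largest shift was at Ppargc1a, 37.1 kb upstream (chr5:51982354-51983901), where the density was 10.89 in untreated cells and 67.75 after glucagon, a shift of 71.76 points. Near the G6pc start, at 0.9 kb, it was 31.51 and 92.05, a shift of 18.37 points, and at the Pck1 start, at 0.4 kb, 28.18 and 77.94, a shift of 21.11 points. The Pck1 site at -8.6 kb and the G6pc site at 12.6 kb moved by less than 1 point by density, but by -12.5 and 14.2 points by z-score, in opposite directions. By z-score 10 of the 16 loci stood at least 10 points nearer the top after glucagon and 2 nearer in untreated cells. These 2 were the Pck1 site at -8.6 kb and the Ppargc1a site at 2.1 kb, which moved by -16.78 points in place of 13.75.

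Fewer sites differed by presence. Of 20 glucagon regions, 4 touched no untreated region, beside 26.0% of the list, and of 21 untreated regions 4 touched no glucagon region, beside 56.7%. The densest glucagon-only region was at G6pc, 1.9 kb after the gene-start edge, with a density of 14.23. The densest untreated-only region, at 50.7 kb in the G6pc window (chr11:101278408-101279014), had a density of 19.85.

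With corticosterone added to glucagon, 5 of 18 shared loci stood at least 10 points nearer the top and 1 at least 10 points farther from it, beside 21.4% and 23.7% of 21896 loci. The first of these counts was close to the share of the genome, and the second was below it. The 5 were 3 at G6pc, at -14.8, -4.2 and 2.0 kb, 1 just past the end of Pck1 and the Ppargc1a site at -41.1 kb, and the 1 that stood farther was the G6pc site at -5.1 kb. The rank ratio gave 1 of 8 loci in the top 10% at or above 4 toward both hormones and 0 toward glucagon alone, beside 7.27% and 0.795%. That locus was the Pck1 site 28.0 kb upstream (chr2:172949356-172950625), with a density of 39.68, rank 2363 of 28229, after glucagon and 232.5, rank 363 of 42090, after both hormones. Of 25 regions with both hormones 6 touched no glucagon region, beside 47.7%, and 1 of 20 glucagon regions touched none with both, beside 18.6%. The densest of the 6 was at Pck1, at -41.7 kb, with a density of 21.61. At Ppargc1a the only one was at -13.1 kb (chr5:51958842-51959353), with a density of 12.92, and no other of the 11 lists had a region there.

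Over the 18620 loci that all 3 hepatocyte CREB lists held, the windows had 13 positions, of which 8 stood nearest the top with both hormones, 2 with glucagon and 3 in untreated cells. Over all loci the shares were 26.2%, 25.9% and 47.9%. The Pck1 gene start had rank 5142 in untreated cells, 912 after glucagon and 332 after both. The Pck1 site at -28.0 kb had rank 8673, 2312 and 359, and the pair of sites near -5.0 kb had rank 4300, 1127 and 686. At these 3 positions each list stood nearer the top than the one before. The Pck1 site at -8.7 kb was level by density, at rank 5142, 5248 and 5328, and stood farther from the top with hormone by z-score, at rank 5731, 8151 and 9465. The Ppargc1a site at -37.2 kb had rank 14994, 1102 and 694, and the intragenic site at 9.2 kb 3952, 2147 and 1190. The position near the Ppargc1a gene-start edge, at 1.6 kb, stood nearest the top after glucagon alone, at rank 7657, 2511 and 3746. The G6pc site at 0.9 kb had rank 4382, 695 and 574, so nearly all of its difference lay between untreated cells and glucagon. By z-score this site stood nearest the top after glucagon alone, at 1085 beside 1125 with both hormones. The dense region on the edge of the G6pc window had rank 204, 238 and 417.

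**Figure D4:**
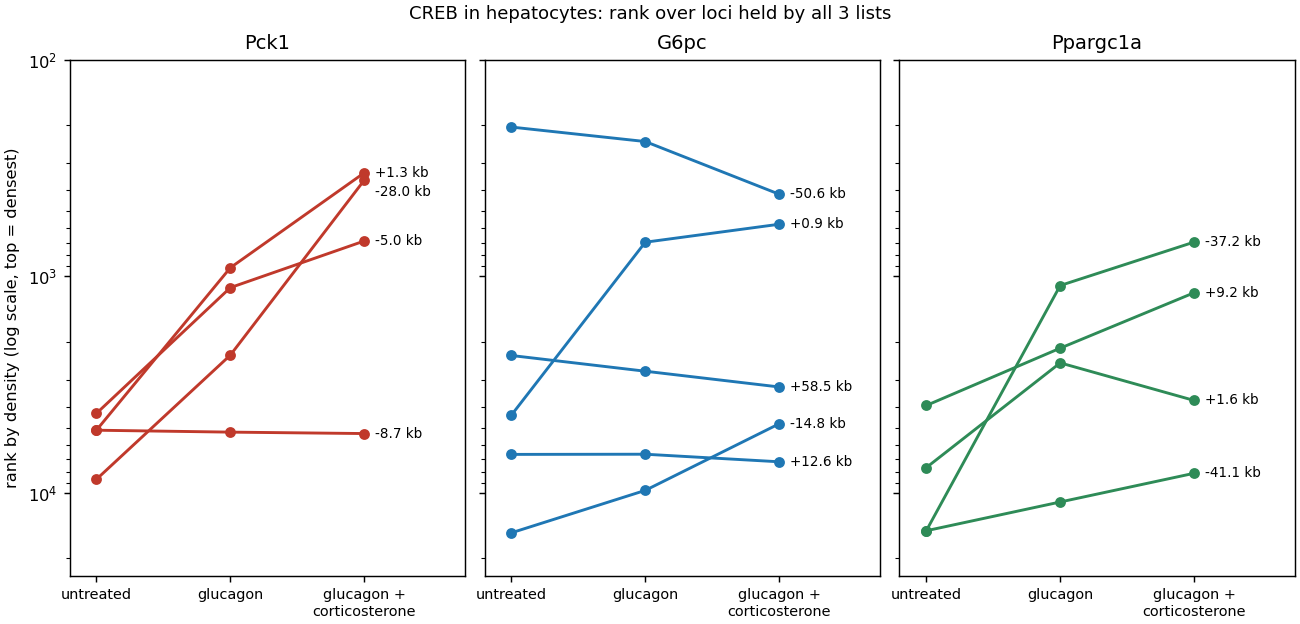
Rank of CREB density (y axis, log scale, densest at the top) over the 18620 loci held by the untreated, glucagon and glucagon + corticosterone hepatocyte lists (x axis); each line is 1 position, labelled by its distance from the gene-start edge. The Pck1 lines with a difference end at ranks 332, 359 and 686, the Pck1 site at -8.7 kb is level at 5142 to 5328 by density, and the Ppargc1a site at -37.2 kb starts at 14994 and ends at 694.

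GR regions lay at 9 of the 27 joined positions, 4 at Pck1, 2 at G6pc and 3 at Ppargc1a, and at all 9 each of the 3 hepatocyte CREB lists had a region. Regions of 1 joined position need not overlap each other, and the share over the genome was not counted. The positions were -28.0, -8.7, -5.0 and 3.9 kb at Pck1 (the last being the gene itself), 0.9 and 12.4 kb at G6pc, and 9.2, -37.2 and -41.1 kb at Ppargc1a. Of 13 GR regions in the windows, 10 touched a region of the untreated CREB list, 11 one of the glucagon list and 13 one of the list of both hormones, beside 39.1%, 37.1% and 42.7% of all 11892 GR regions. In the other direction, 10 of 21 untreated, 11 of 20 glucagon and 12 of 25 regions with both hormones touched a GR region, beside 9.74%, 15.4% and 11.4% of those lists. Several of the 13 touch the same CREB region, so they are not independent. GR was listed only for cells given both hormones, so CREB sites of untreated cells are set beside a receptor measured in other cells.

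The densest GR region of the windows was the Pck1 site at -27.9 kb (chr2:172949640-172950460), with a density of 33.92, rank 292 of 11892 and a z-score of 62.3. The Pck1 start had a density of 29.62, rank 364, in a region of 3399 bp. The Ppargc1a site at -36.9 kb (chr5:51982498-51983319) had a density of 23.16, rank 550. The G6pc start was lower, at 13.88, rank 1235 (chr11:101228521-101229208). The weakest GR sites of the windows were at Pck1 -8.7 kb, at the Ppargc1a positions 9.5 and -41.1 kb and at G6pc 12.6 kb, with densities of 5.195, 5.628, 4.762 and 5.845. GR covered 87.2% of the Pck1 gene part in 4 regions, and CREB 12.2% in untreated cells, 15.7% after glucagon and 73.0% after both hormones. The CREB region at the Pck1 start was 1054 bp long in untreated cells, 1415 bp after glucagon and 3678 bp after both hormones.

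The liver and hepatocyte lists met at some of these sites and not at others. Of 13 window regions of CREB in 24 h fasted liver, 11 touched a hepatocyte GR region, beside 16.7% of that list, and of 7 in fed liver 3 did, beside 13.8%. Of those 11, 8 were at Pck1, where GR covers most of the gene. The Ppargc1a sites at -37.2 and -41.1 kb were held by all 3 hepatocyte CREB lists and by GR, and by none of the CREB, phospho-CREB or H3K27ac lists of liver. The Pck1 site at -28.0 kb was held by both liver CREB lists, all 3 hepatocyte CREB lists, GR and all 3 H3K27ac lists, and by neither phospho-CREB list. Tissue, cell isolation, hormone and library differ together between the liver and the hepatocyte lists and cannot be told apart.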

How the data were processed

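Chromatin immunoprecipitation libraries of mouse liver and hepatocytes (38 samples, 15 groups by the labels) were represented by 13 deposited lists of regions. For 11 of them the list name carries library numbers that the descriptions give for 1 group. The remaining 2 lists (8 value columns) fitted none of the samples and are not used here. The submitters' processing notes name CASAVA 1.8 and build mm9. Per the file headers, the authors gave each region its highest tag density (a signal) and a z-score. How the authors' peak caller made and scaled that score and that signal before they were deposited, and the depth, is not given in the sources used, so no interval or floor could be given. The names of the 3 H3K27ac lists speak of pooled libraries. Those of the other 8 name a pair of libraries, for liver CREB and phospho-CREB 2 of the 3 in the group, and for untreated hepatocytes 1 library against itself. No per-library values were used, so no condition was tested. The 10 samples of 4 further groups are not analysed here.

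Regions of 2 lists sharing at least 1 base were treated as the same locus, took their highest density in each list, and were ranked over the same loci. Shifts of 10 percentile points, and rank ratios of 4 (chosen after seeing the data, as were the loci held by 3 lists, their ranking by z-score and the join of the 8 factor lists), were counted beside the same share of all loci. Regions named are the densest per window and list, the densest without a partner, those with the largest shifts, and joined positions with GR or 5 or more lists. Alternatives were other overlaps, equal list lengths, ranks by z-score, other thresholds and windows of 25 kb flanks. The code was checked on simulated lists. The genes, windows and rules were chosen with earlier results of these data known. Gene order and promoters came from RefSeq (GRCm38.p6); both promoters printed were found by symbol. Python 3.11.15, numpy 2.4.6 and pandas 2.3.3 were used.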

Additional observations from a re-analysis of the deposited data

How the results depend on the processing

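No paired analysis was possible because each condition has 1 list and no values per library. Of the counts recomputed, these moved by over 1.5 times. With 25 kb flanks, CREB in fed liver had 4 window regions in place of 7, the 10 h H3K27ac regions without a 24 h partner were 3 in place of 6, and the untreated CREB regions without a glucagon partner 2 in place of 4. In the upper 50% of its list, fed H3K27ac had 12 window regions in place of 20. With a gap of 500 bp counted as overlap, fed H3K27ac regions without a 10 h partner were 0 in place of 1. With lists of equal length by density, and by z-score, these were 2 and 3, the 10 h regions without a 24 h partner 3 and 2, and the untreated CREB regions without a glucagon partner 1 and 1; fed CREB regions without a 24 h partner were 0 by z-score in place of 1. Ranked by z-score, loci nearer the top at 24 h than in fed liver were 3 for H3K27ac in place of 5 and 2 for phospho-CREB in place of 1, those nearer in fed liver were 0 against 10 h for H3K27ac in place of 1 and 1 for CREB in place of 0, and those nearer in untreated cells than after glucagon, and after glucagon than after both hormones, were 2 and 2 in place of 0 and 1. With a shared stretch of 50%, H3K27ac loci nearer in fed than in 10 h liver were 2 in place of 1. With a threshold of 5 points, H3K27ac loci nearer at 24 h than in fed liver were 8, nearer in fed than in 24 h liver 1, and nearer in fed than in 10 h liver 4; CREB loci nearer in fed than in 24 h liver were 1, and nearer after glucagon than after both hormones 2. With 20 points, H3K27ac loci nearer at 24 h than in fed liver were 1, at 10 h than in fed liver 2, at 24 h than at 10 h 3, and at 10 h than at 24 h 2; CREB loci nearer after glucagon than in untreated cells were 7, after both hormones than after glucagon 2, and the reverse 0. By z-score the Ppargc1a locus 2.1 kb after the gene-start edge moved by -16.78 points from untreated cells to glucagon, in place of 13.75. Over loci of all 3 H3K27ac lists 1 stood nearest the top in fed liver by z-score in place of 0. The causes of these differences were not tested, other than that fewer regions or a wider threshold change the number counted. Depth behind the lists is unknown, so a region missing from a list is not shown to be absent there.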
